A study of Mus musculus with 4 samples.

Results

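The Eph receptors and ephrins of the embryonic mouse heart were followed through 10 genes of 27998 in the deposited gene tables, chosen by symbol: the receptors Epha4, Epha7, Ephb2, Ephb3 and Ephb4 and the ligands Efna1, Efna5, Efnb1, Efnb2 and Efnb3. All 10 had a row in each of the 4 count matrices. The cells came from wild-type CD1 mice at embryonic day 16.5 and were untreated. Hearts had been microdissected into the sinoatrial node (SAN) region, the atrioventricular node and His bundle (AVN/His) region, and the bundle branch and Purkinje fiber (BB/PF) regions of each ventricle, left and right, with 1 single-cell library for each. Region and library therefore cannot be told apart, and the labels do not say how many embryos went into a library.

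Eph receptors are tyrosine kinases of the cell surface whose ligands, the ephrins, are themselves held on the membrane of neighboring cells, so that contact between cells can send a signal into both of them. EphA receptors mainly bind ephrin-As, which are held by a GPI anchor, and EphB receptors mainly bind ephrin-Bs, which cross the membrane, while Epha4 binds ligands of both classes. The family is known for axon guidance, for sorting cells at tissue boundaries and, in blood vessels, for ephrin-B2 on arteries and its receptor Ephb4 on veins.

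Of 22805 barcodes, 21035 had at least 500 genes and were kept, 4356 to 5934 in a library, with median depths of 8479.5 to 9272 unique molecular identifiers (UMIs) a cell. Between 29 and 49 cell barcodes were shared by any pair of libraries, at most 0.961% of the smaller one. Cells were clustered without the Eph, ephrin and pathway genes and classes were named from other marker genes, and every named class is called X-like for that reason. The SAN-like cells (n = 111) passed on 8 of 8 SAN markers, the AVN/His-like cells (n = 126) on 7 of 9 and the PF-like cells (42 from the left ventricle, 21 from the right) on 7 of 8. The clustering resolution was chosen so that a cluster passed on these markers, so the counts are not separate support for the names. Levels are UMIs of a gene per 10000 UMIs of all genes, summed over the cells of a class in 1 library. They were counted at the 3' ends of transcripts and are compared between cell classes for 1 gene at a time, not between genes. Intervals are exact 95% intervals and cover counting error only. Macrophage-like cells were taken as the background class, and whether free RNA alone set their levels was not tested. Their 8 cardiomyocyte markers summed to 39.1, 21.2, 36.2 and 52.2 UMIs per 10000 in the SAN, AVN/His, left and right libraries. Endothelial-like cells had 4.93, 4.26, 4.18 and 2.97 of these markers and fibroblast-like cells 30.5, 28.6, 32.9 and 17.6. Of 400 values of a gene in a class and library, 159 had an interval wholly above the macrophage-like interval of the same library. With each cell thinned to 2000 UMIs, 76 had. The macrophage-like class held 212, 84, 22 and 90 cells in the SAN, AVN/His, left and right libraries, so its intervals differed in width. The same share was not computed over all genes, so these counts do not set the members apart from other genes.

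The 10 genes lie on 9 chromosomes, Epha7 and Ephb2 both on chromosome 4 but far apart. In the GRCm38 build (mm10), which the submitters' processing notes name, Epha4 spans chr1:77367185-77515088 on the minus strand, Ephb3 chr16:21204755-21223305 on the plus strand, Efna1 chr3:89271733-89281142 on the minus strand and Efnb2 chr8:8617434-8661242 on the minus strand. All 4 differed in a test among conduction or endothelial classes, as did some members not printed here, Epha7 among them. Stretches just before the RefSeq start of these 4 genes are printed. They are taken 5′ to 3′ on the gene's own strand from RefSeq on GRCm38.p6, and capitals mark 2 motifs, TGGGAA (RBPJ) and GGGCGG (GC box). The Efna1 stretch lies inside the gene bounds given above, since the annotation with those bounds has a transcript that starts farther out.
Epha4 chr1:77515089-77515338: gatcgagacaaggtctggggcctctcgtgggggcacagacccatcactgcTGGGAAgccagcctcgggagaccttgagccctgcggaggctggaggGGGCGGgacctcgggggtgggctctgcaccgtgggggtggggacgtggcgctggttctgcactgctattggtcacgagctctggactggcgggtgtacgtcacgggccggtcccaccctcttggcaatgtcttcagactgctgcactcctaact
Ephb3 chr16:21204545-21204754: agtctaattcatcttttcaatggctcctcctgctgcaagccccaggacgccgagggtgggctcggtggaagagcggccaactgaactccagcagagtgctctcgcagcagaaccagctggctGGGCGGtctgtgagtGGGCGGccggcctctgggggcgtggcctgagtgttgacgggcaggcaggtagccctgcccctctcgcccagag
Efna1 chr3:89279646-89279895: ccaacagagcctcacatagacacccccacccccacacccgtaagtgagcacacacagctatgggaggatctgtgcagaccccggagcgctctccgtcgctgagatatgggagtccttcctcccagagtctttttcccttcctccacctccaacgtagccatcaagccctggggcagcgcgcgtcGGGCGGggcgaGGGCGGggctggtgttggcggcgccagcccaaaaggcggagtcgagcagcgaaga
Efnb2 chr8:8661243-8661492: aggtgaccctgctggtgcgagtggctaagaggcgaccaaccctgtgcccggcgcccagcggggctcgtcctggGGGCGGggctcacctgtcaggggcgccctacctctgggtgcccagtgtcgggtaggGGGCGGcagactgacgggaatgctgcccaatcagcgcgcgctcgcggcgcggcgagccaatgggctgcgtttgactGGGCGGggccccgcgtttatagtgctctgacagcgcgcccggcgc
All 4 stretches held the GC box, found on either strand in 32.7% of 32851 mouse promoter stretches of 250 bases. Epha4 alone of the 4 held TGGGAA, present in 21.6% of those stretches. The T-box motif AGGTGT, in 11.8% of all stretches, was in none of the 4 on either strand. The same held for AGATAA, known from factors of the zinc finger family of Gata4, in 9.99% of all stretches. These are matches of letters only.

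Among the receptors, Epha4 had its highest levels in atrial cardiomyocyte-like and PF-like cells. It stood at 2.89 UMIs per 10000 in atrial cardiomyocyte-like cells of the SAN region and 1.61 in those of the AVN/His region, with a UMI in 84.5% and 78.4% of cells. PF-like cells had 1.75 in the left and 2.42 in the right ventricle (69.0% and 76.2% of cells), so these classes overlapped and their order cannot be settled. SAN-like cells came next with 0.793 and AVN/His-like cells had 0.280, whereas ventricular cardiomyocyte-like cells had 0.104 to 0.148 in 3 libraries. Macrophage-like cells had 0.318 in the SAN region and at most 0.0532 elsewhere, so the level in that class was highest in the library with the most atrial cells.

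Ephb3, a receptor for ephrin-Bs, was highest in PF-like cells, with 1.21 UMIs per 10000 in the left and 1.45 in the right ventricle and a UMI in 61.9% and 57.1% of cells. AVN/His-like cells had 0.444 and SAN-like cells 0.306, with intervals that overlapped (0.343 to 0.566 and 0.209 to 0.432). Atrial cardiomyocyte-like cells had 0.0700 and 0.212, and the 3 libraries with ventricular cardiomyocyte-like cells had 0.0466 to 0.0646. Every conduction-like value thus lay above every value of working myocytes. Smooth muscle-like cells, at 0.306 and 0.195, overlapped the SAN-like value.

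Epha7, an EphA receptor, was highest in endocardial-like cells, at 0.867 in the SAN region and 1.53 to 1.84 in the other 3 libraries, with a UMI in 46.0% to 57.6% of cells. Coronary capillary-like cells held almost none of it, with 0 UMIs in 2 libraries and 0.00349 and 0.00319 UMIs per 10000 in the others. Valve mesenchyme-like cells had 0.727, PF-like cells 0.458 and 0.753 and fibroblast-like cells 0.290 to 0.614, so these 3 classes overlapped. The endocardial-like values lay above all of them. The right PF-like value rests on 21 cells and its counting interval holds 0.867, so the order of those 2 values cannot be settled.

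Ephb4, the ephrin-B2 receptor known from veins, reached 1.56 UMIs per 10000 in lymphatic-like cells of the SAN region (75.5% of 53 cells). Endocardial-like cells had 0.812 to 1.70, a range that held the lymphatic-like value. Arterial-like cells had 0.585 to 0.783 and capillary-like cells 0.477 to 0.701, so arterial-like and capillary-like cells overlapped. Cardiomyocyte-like classes stayed between 0.0895 and 0.215.

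Ephb2, another receptor for ephrin-Bs, was the sparsest of the 10. Its highest level was in Schwann-like cells, glia of the peripheral nerves, at 0.677 UMIs per 10000 (23 UMIs, 37.0% of 46 cells, 1 library). Fibroblast-like cells had 0.0330 to 0.136, smooth muscle-like cells 0.0617 and 0.195. In AVN/His-like, PF-like and arterial-like cells no UMI was found.

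Among the ligands, Efnb2 and Efna1 were both highest in arterial-like cells. Efnb2, the transmembrane ligand known from arteries, had 3.66 UMIs per 10000 in arterial-like cells of the SAN region and 2.26, 2.27 and 2.48 in the AVN/His, left and right libraries. Its next classes overlapped: endocardial-like cells had 0.459 to 1.29, SAN-like cells 0.965, smooth muscle-like cells 0.946 and 0.699, and capillary-like cells 0.591 to 0.901. Working myocytes had 0.0162 to 0.112, and PF-like cells had 0 UMIs in both ventricles, which allows up to 0.0807 on the left and 0.161 on the right at 3 counts.

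Efna1, a GPI-anchored ligand of EphA receptors, stood at 3.23, 3.51, 3.62 and 3.83 UMIs per 10000 in arterial-like cells, in the SAN, AVN/His, left and right libraries. Capillary-like cells had 0.874 to 1.58, endocardial-like cells 0.713 to 1.04 and lymphatic-like cells 0.771, all below the arterial-like values and overlapping one another. Outside the endothelium, epicardial-like cells were highest with 0.510 and 0.472. In the classes of cardiomyocytes the level did not pass 0.215.

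Efna5, the other GPI-anchored ligand and a known axon guidance cue, was highest in smooth muscle-like cells (2.23 and 1.72 UMIs per 10000) and epicardial-like cells (1.73 and 1.95), whose values overlapped. SAN-like cells had 0.908, with a UMI in 48.6% of cells. Arterial-like cells varied most between libraries, with 1.42, 0.176, 0.0183 and 0.286 in the SAN, AVN/His, left and right libraries. PF-like cells had 0 UMIs on both sides, beside 0.254 and 0.371 in ventricular cardiomyocyte-like cells of the same libraries.

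Efnb1, a transmembrane ligand encoded on the X chromosome, was highest in epicardial-like cells (0.957 and 0.756) and fibroblast-like cells (0.546 to 0.758), which met at their ends. Efnb3, the third transmembrane ligand, was highest in ventricular cardiomyocyte-like cells at 0.502 in the AVN/His region, 0.402 in the left and 0.443 in the right ventricle. AVN/His-like cells had 0.342 of it, PF-like cells 0.215 on either side, atrial cardiomyocyte-like cells 0.127 and 0.125 and SAN-like cells 0.115. Efnb3 was thus the member of the set with its highest level in ventricular myocytes, and endothelial-like classes had at most 0.0538.

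**Figure D1:**
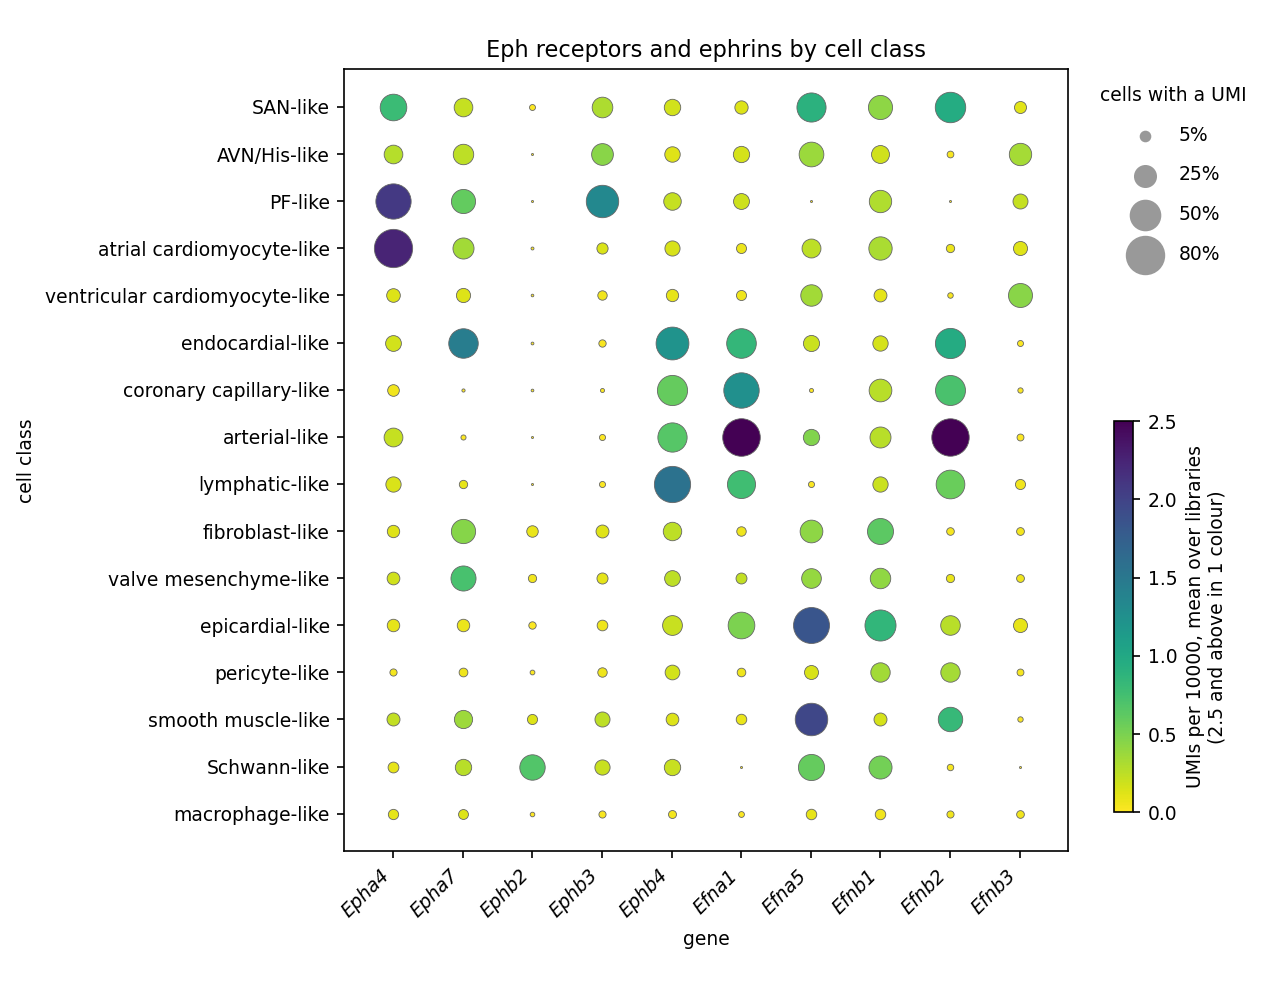
Level of each of the 10 genes (columns) in 16 cell classes (rows). Dot color gives UMIs per 10000 as the mean over libraries, with 2.5 and above in 1 color, and dot area the share of cells with a UMI. Epha4 is darkest in atrial cardiomyocyte-like and PF-like cells, Ephb3 in PF-like cells, Epha7 in endocardial-like cells and Efna1 and Efnb2 in arterial-like cells.

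Endothelial-like cells were set against cardiomyocyte-like cells over 4 libraries with edgeR's quasi-likelihood test and a term for the library, and p was adjusted by Benjamini-Hochberg over every gene tested. Sizes of tested differences are log2 fold changes with their standard error (SE). The 2 sides are classes of the same libraries and were named from the same cells, so the p-values concern the spread between 4 libraries of different regions. Of the 10 genes, 9 passed the filter on low counts and 8 differed, 4 higher and 4 lower, beside 68.8% of all 12520 genes tested, so that a call in this comparison was common among genes. Efnb2 was higher in endothelial-like cells by 4.82 ± 0.36 (adjusted p = 5.8e-05), Efna1 by 4.04 ± 0.20 (adjusted p = 1.0e-05) and Ephb4 by 2.64 ± 0.14 (adjusted p = 1.2e-05). In the 4 libraries Efnb2 had 1.0 to 1.13 UMIs per 10000 in endothelial-like and 0.0160 to 0.0778 in cardiomyocyte-like cells, with no overlap.

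Epha7 was also higher in endothelial-like cells, by 0.71 ± 0.19 (adjusted p = 0.016), but not without the library block (adjusted p = 0.12). Efnb3 was lower, at -4.40 ± 0.37, Ephb3 at -3.00 ± 0.66 and Efna5 at -2.28 ± 0.41 (edgeR, adjusted p = 9.6e-05, 6.5e-03 and 2.8e-03). Epha4 was lower in endothelial-like cells, at -2.21 ± 0.67 (adjusted p = 0.024), and the call was lost without the AVN/His library (adjusted p = 0.061) or the left one (adjusted p = 0.052). That difference was unequal among libraries. Epha4 had 0.132 against 2.81 UMIs per 10000 in the SAN region, where the myocytes are atrial, and 0.102 against 0.162 in the right ventricle. Efnb1 did not pass the test (0.34 ± 0.49, adjusted p = 0.56): it was lower in endothelial-like cells of the SAN region, 0.153 against 0.406, and higher in those of the other 3. Without the SAN library Efnb1 was higher, by 0.93 (adjusted p = 1.3e-04).

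Fibroblast-like against cardiomyocyte-like cells gave 7 differences among the 10 genes, 4 higher and 3 lower, beside 67.8% of 12804 genes. Ephb2 was higher in fibroblast-like cells by 4.96 ± 0.30 (edgeR, adjusted p = 3.1e-05), with 0.0330 to 0.136 UMIs per 10000 against at most 0.00245 in cardiomyocyte-like cells. Efnb1 was higher by 1.72 ± 0.27, Epha7 by 1.03 ± 0.16 and Ephb4 by 0.91 ± 0.12. Lower in fibroblast-like cells were Efnb3 (-3.32 ± 0.40) and Epha4 (-2.44 ± 0.36), the receptor and ligand that led in the myocytes. Efna1 passed narrowly (-0.45 ± 0.16, adjusted p = 0.041) and lost its call in 6 of the alternatives, among them without SAN, AVN/His or left (adjusted p = 0.072, 0.19 and 0.073). Ephb3 (0.34), Efna5 (0.04) and Efnb2 (-0.19) did not pass, although Efnb2 was lower, at -0.62, with hemoglobin-led cells kept (adjusted p = 0.015).

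**Figure D2:**
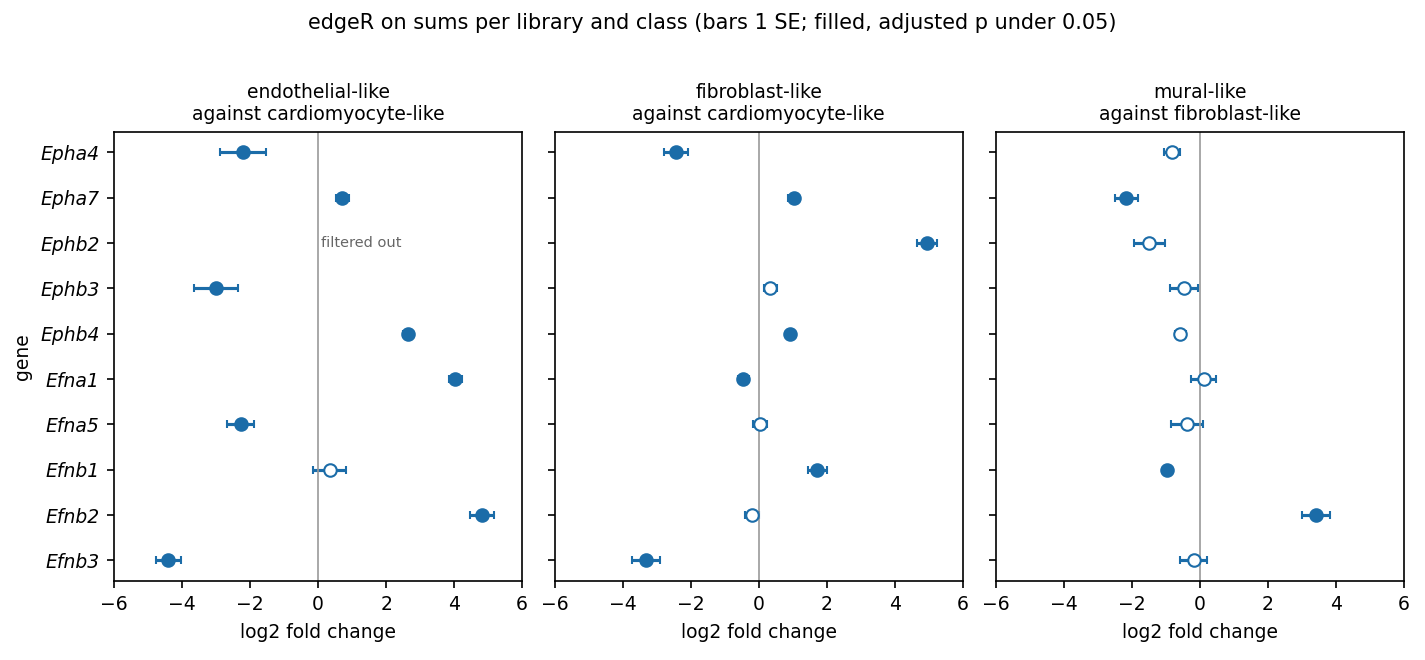
Log2 fold change of each gene (horizontal axis, points with bars of 1 SE) in 3 comparisons over 4 libraries, from edgeR. Filled points have an adjusted p under 0.05. Efnb2, Efna1 and Ephb4 lie to the right for endothelial-like cells and Efnb3 to the left for both non-muscle classes, while among mural-like cells only Efnb2 is filled on the right.

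Within the endothelium, endocardial-like cells were compared with coronary endothelial-like cells, that is capillary-like and arterial-like cells together. Of the 10 genes, 7 passed the filter, of which 2 were higher and 2 lower, beside 31.5% of 9407 genes. Epha7 separated these classes most: 628 UMIs in endocardial-like and 4 in coronary endothelial-like cells over all libraries, a ratio of 306 with a counting interval of 119 to 1128. By library it had 0.867, 1.58, 1.84 and 1.53 UMIs per 10000 in endocardial-like cells and 0.0116, 0.00613, 0 and 0.00254 in coronary endothelial-like cells (adjusted p = 2.0e-06). The groups lay far apart in every library. The 8 fibroblast markers, a class that also had Epha7 (0.290 to 0.614), summed to 6.42, 12.7, 6.74 and 6.21 UMIs per 10000 in endocardial-like cells and to 3.24, 1.017, 0.0612 and 0.236 in coronary endothelial-like cells, and their part in the result was not tested. The endocardial-like level of Epha7 lay above that of fibroblast-like cells, which is not a test of that part.

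Ephb4 was higher in endocardial-like cells as well, by 0.84 ± 0.17 (edgeR, adjusted p = 6.4e-03), and lost its call without the right library (adjusted p = 0.054). Its endocardial-like levels of 1.36, 1.0, 0.812 and 1.70 lay above the coronary levels of 0.580, 0.689, 0.503 and 0.701. The ligand Efna1 was lower in endocardial-like cells, at -1.27 ± 0.16 (adjusted p = 5.1e-04), with 0.713 to 1.04 against 1.63 to 2.17. Efnb1 was lower, at -0.99 ± 0.21 (adjusted p = 6.8e-03), with 0.12 to 0.188 against 0.245 to 0.331. Efnb2 did not pass (-0.53, adjusted p = 0.19), nor did Epha4 (0.54) or Efna5 (0.43). Without the SAN library Epha4 and Efna5 were higher in endocardial-like cells, by 1.06 and 2.29 (adjusted p = 0.025 and 0.022), and without the AVN/His library Efnb2 was lower, at -0.88 (adjusted p = 0.041).

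Arterial-like against capillary-like cells differed in both ligands known from endothelium. Only 4 of the 10 genes passed the filter, and 2 of them were higher in arterial-like cells, beside 26.3% of 6464 genes called in either direction and 12.8% called higher. Efnb2 was higher by 1.71 ± 0.14 (edgeR, adjusted p = 1.6e-08) and Efna1 by 1.45 ± 0.12 (adjusted p = 3.0e-08), and their arterial-like values lay above the capillary-like ones in all 4 libraries. The 8 pericyte markers summed to 3.15, 4.51, 2.95 and 3.75 UMIs per 10000 in arterial-like cells and to 0.334, 1.24, 0.442 and 0.524 in capillary-like cells. The summed pericyte markers thus moved with both ligands. In arterial-like cells 7 of the 8 had a UMI in the SAN, AVN/His and right libraries, but only 2 in the left one. Mural-like cells themselves had 0.27 to 0.501 UMIs per 10000 of Efnb2. The part of pericyte RNA in these differences was not tested for either ligand. No venous-like class was named, so the comparison sets arterial-like against capillary-like cells and not arteries against veins. Ephb4 did not pass, with 0.10 ± 0.16 (adjusted p = 0.69). Its estimate took either sign among the alternatives, from -0.22 upward, so no direction is given for it. Efnb1 did not pass either (-0.14, adjusted p = 0.73). The arterial-like class held 30, 32, 39 and 58 cells in the SAN, AVN/His, left and right libraries.

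Ligand and receptor of the artery and vein pair were often found in 1 cell of the capillary-like and arterial-like classes. In capillary-like cells Efnb2 and Ephb4 both had a UMI in 20.6%, 30.7%, 30.8% and 36.5% of cells of the 4 libraries, where the products of their separate shares are 13.5%, 26.6%, 24.6% and 31.3%. In arterial-like cells 40.6% to 48.7% held both. No test was made of these shares.

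**Figure D3:**
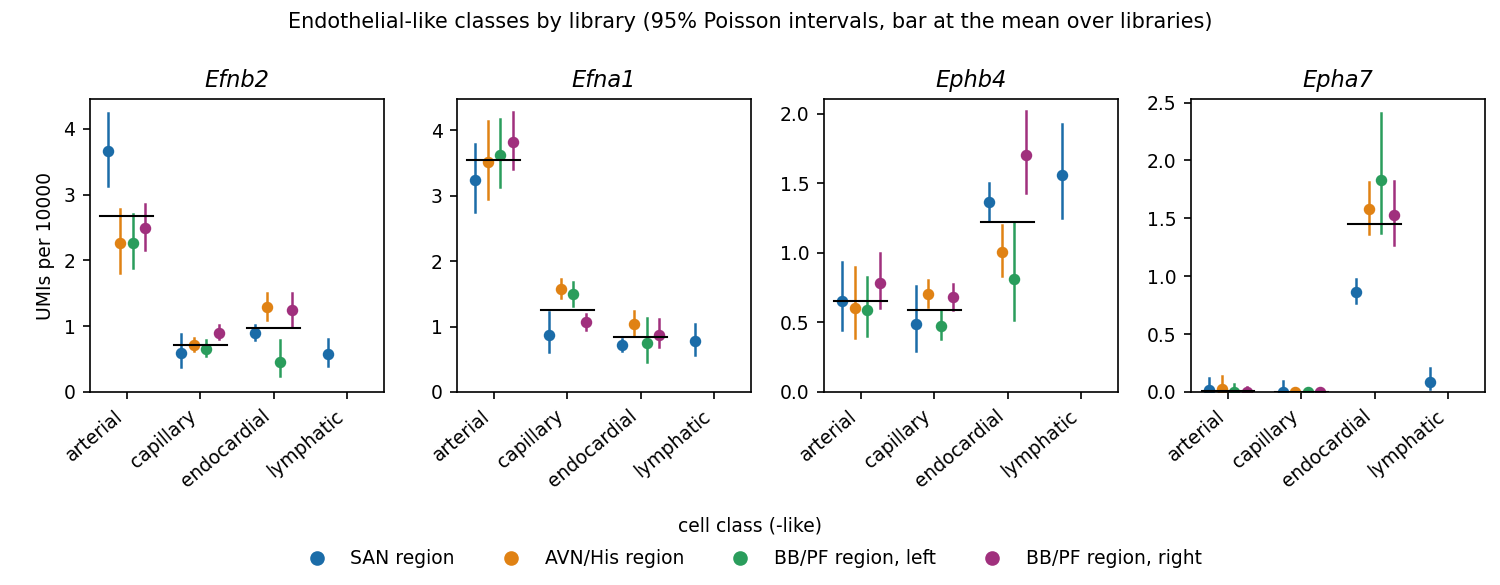
UMIs per 10000 of Efnb2, Efna1, Ephb4 and Epha7 (vertical axes) in arterial-like, capillary-like, endocardial-like and lymphatic-like cells (horizontal axis). Points are libraries with 95% Poisson intervals and the bar is the mean over libraries. Efnb2 and Efna1 sit highest in arterial-like cells, Epha7 is near 0 outside endocardial-like cells and Ephb4 overlaps between arterial-like and capillary-like cells.

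Mural-like cells (pericyte-like and smooth muscle-like) were set against fibroblast-like cells. All 10 genes passed the filter and 3 differed, 1 higher and 2 lower, beside 11.4% of 10402 genes (6.22% higher and 5.20% lower). Efnb2 was higher in mural-like cells by 3.41 ± 0.41 (edgeR, adjusted p = 6.1e-03), at 0.27, 0.501, 0.411 and 0.452 UMIs per 10000 against 0.0221 to 0.0664, with no overlap. Mural-like cells were unlike between libraries: the 8 fibroblast markers summed to 88.0, 41.9, 8.45 and 11.9 UMIs per 10000 in the SAN, AVN/His, left and right libraries and the 8 pericyte markers to 16.9, 29.4, 42.3 and 48.1, beside 99.8 to 199 and 1.62 to 3.41 in fibroblast-like cells. The part of this spread in the result was not tested. Epha7 was lower, at -2.16 ± 0.34 (adjusted p = 0.013), and Efnb1 at -0.96 ± 0.13 (adjusted p = 7.8e-03). Without the left library, or without the library term, Epha7 just missed the threshold (adjusted p = 0.052 and 0.059), as Efnb1 did without the AVN/His library or without the right one (adjusted p = 0.053 in both cases). The mural-like level of Efna5 was 0.611 and 0.776 in the SAN and AVN/His libraries and 0.0670 and 0.12 in the ventricular ones. Smooth muscle-like cells, rich in Efna5, were present only in the SAN and AVN/His libraries. Pericyte-like cells also differed, with an Efna5 UMI in 20.9%, 8.91%, 4.93% and 8.19% of cells in the SAN, AVN/His, left and right libraries. The part of either in the mural-like level was not tested. Over all 4 libraries Efna5 did not pass (-0.38).

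The conduction-like cells were compared with the other cardiomyocyte-like cells of their own library, component by component. SAN-like cells had 0.965 UMIs per 10000 of Efnb2 (101 UMIs, 53.2% of cells) against 0.0415 in atrial cardiomyocyte-like cells (3.47% of cells), a log2 ratio of 4.54 with a counting interval of 4.13 to 4.95. Efna5 was at 0.908 against 0.25 there (log2 ratio 1.86, 1.53 to 2.17) and Ephb3 at 0.306 against 0.0700 (2.13, 1.54 to 2.68). Epha4 lay the other way, at 0.793 against 2.89 (-1.87, -2.20 to -1.55). The summed level of 9 endothelial markers was 0.440 UMIs per 10000 in SAN-like cells and 0.434 in atrial cardiomyocyte-like cells, that of 8 fibroblast markers 2.91 and 1.33, and that of 7 erythroid markers 19.99 and 22.8. The 54 SAN-like cells that reached a limit for endothelial or hemoglobin RNA were then left out. Efnb2 then had a log2 ratio of 4.77, Efna5 of 1.56 and Epha4 of -1.92.

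In AVN/His-like cells the leading member was Ephb3, at 0.444 against 0.0650 UMIs per 10000 in the other cardiomyocyte-like cells of that library (log2 ratio 2.77, 2.34 to 3.19). Epha7 (0.74), Efna1 (1.01) and Efnb1 (0.82) also had intervals above 0, and that of Efnb3 lay just below it (-0.49, -0.93 to -0.08). The comparator held 2250 ventricular and 134 atrial cardiomyocyte-like cells, so these ratios are mainly against ventricular ones. Atrial cells of that library exceeded ventricular ones by more than these ratios for Epha7 and Efnb1, and by less for Ephb3. The Epha7 and Efnb1 ratios therefore do not hold against atrial cells. The 28 AVN/His-like cells that reached a limit for endothelial or hemoglobin RNA were then left out. Ephb3 then had a log2 ratio of 2.63, Epha7 of 0.73 and Efnb1 of 1.01. The intervals of Efna1 (0.79, -0.11 to 1.57) and Efnb3 (-0.36, -0.88 to 0.11) covered 0. After thinning, Efna1 was at -1.08 from a single UMI in AVN/His-like cells. For Epha4 and Efnb3 the comparator decided the sign. The Efnb3 level in AVN/His-like cells lay below the ventricular and above the atrial level of that library. Against ventricular cardiomyocyte-like cells the log2 ratio of Epha4 was 0.92 (0.42 to 1.39). Against the 134 atrial cardiomyocyte-like cells of the same library it was -2.52 (-3.03 to -2.04). Efnb2, at 4 UMIs in 126 cells, showed none of the level found in SAN-like cells. The 8 macrophage markers summed to 2.36 in AVN/His-like cells, beside 0.0667 in ventricular cardiomyocyte-like cells.

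In PF-like cells of both ventricles Epha4, Ephb3, Epha7 and Efna5 had intervals off 0 against the other cardiomyocyte-like cells. Epha4 had 1.75 against 0.104 UMIs per 10000 on the left (log2 ratio 4.07, 3.67 to 4.45) and 2.42 against 0.144 on the right (4.07, 3.59 to 4.52). Ephb3 had 1.21 against 0.0466 on the left (4.70, 4.19 to 5.18) and 1.45 against 0.0646 on the right (4.49, 3.84 to 5.09). Epha7 had 0.458 against 0.118 and 0.753 against 0.126. Efna1 (2.05, 0.82 to 3.06) and Efnb1 (1.87, 0.98 to 2.63) had intervals above 0 on the left, while those on the right covered 0 (1.25, -1.04 to 2.83, and 1.11, -0.78 to 2.49); no test compared the sides. In the other direction, Efna5 was not found in any of 63 PF-like cells, which places it at least 5.56-fold lower than in other cardiomyocyte-like cells at a floor of 3 counts over both libraries. The 7 erythroid markers summed to 111 in left PF-like cells, beside 11.98 in the other cardiomyocyte-like cells there, and to 8.23 beside 12.3 on the right. The 8 macrophage markers summed to 3.53 and 1.56, from 1 marker alone (Lyz2), the other 7 being at 0. With component cells left out that reached a limit for endothelial or hemoglobin RNA, Epha4 had log2 ratios of 4.12 and 4.05. Ephb3 had 4.79 and 4.20.

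**Figure D4:**
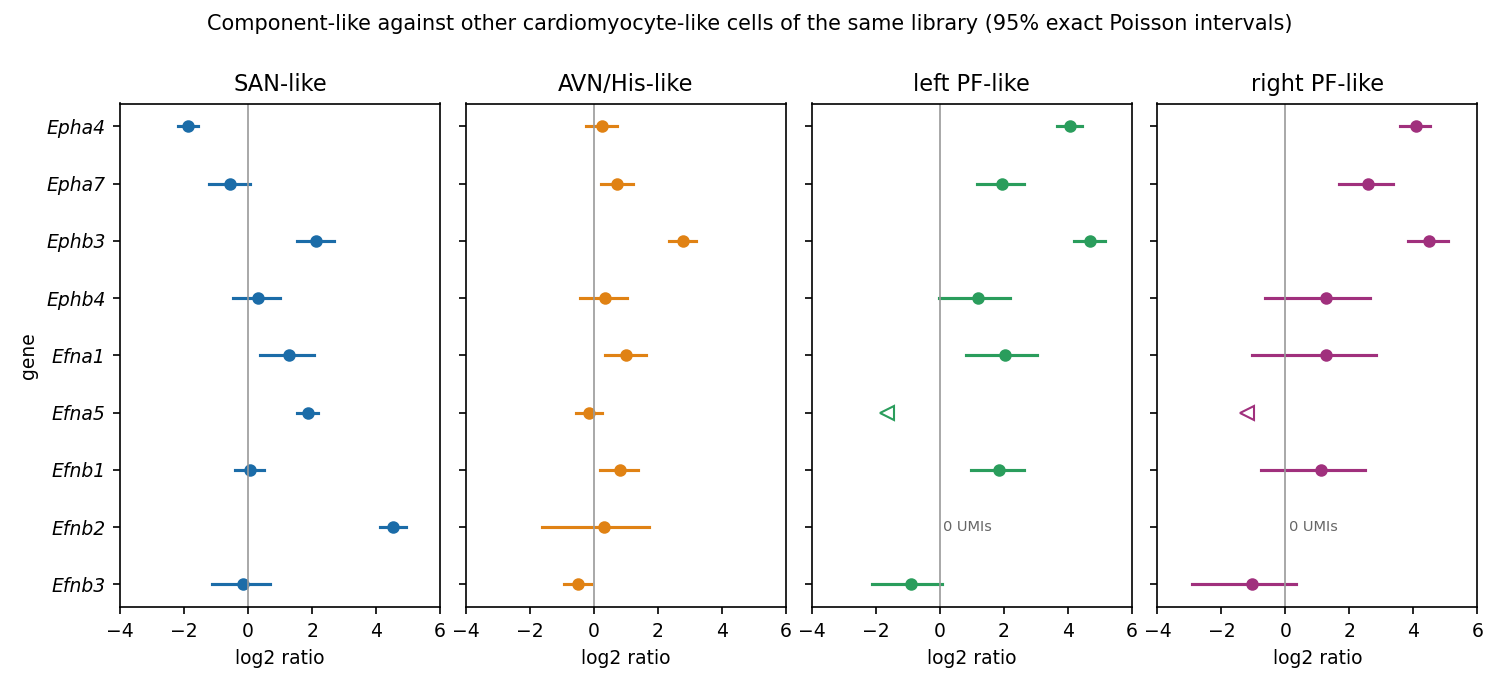
Log2 ratio of UMIs per 10000 (horizontal axis) between component-like and other cardiomyocyte-like cells of the same library, for 9 of the 10 genes, with 95% exact Poisson intervals. Open triangles mark a bound where the component had 0 UMIs. Ephb3 lies right of 0 in every panel, Epha4 left of 0 in SAN-like and right of 0 in PF-like cells, and Efnb2 is at 4.54 in SAN-like cells.

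Tested over both ventricular libraries, 9 of the 10 genes passed the filter and 6 differed between PF-like and other cardiomyocyte-like cells, 4 higher and 2 lower, beside 21.5% of 11509 genes (8.11% higher and 13.4% lower). With 2 libraries a gene has 1 residual degree of freedom, so these p-values rest on a spread pooled across genes. The median log2 fold change of all genes tested was -0.15. Ephb3 was higher by 4.26 ± 0.32, Epha4 by 3.73 ± 0.23, Epha7 by 1.88 ± 0.36 and Efnb1 by 1.30 ± 0.46 (edgeR, adjusted p = 1.1e-37, 4.6e-56, 2.0e-06 and 0.024). Efnb3 was lower, at -1.29 ± 0.38 (adjusted p = 5.2e-03), and Efna5 was lower by the bound given above (adjusted p = 2.8e-08). The DESeq2 Wald test kept Epha4, Ephb3 and Epha7 and lost Efna5, Efnb1 and Efnb3 (adjusted p = 0.50, 0.29 and 0.21). A fit over all classes lost Epha7 and Efnb1 (adjusted p = 0.10 and 0.12). No PF-like cluster could be named with 20 principal components or with at least 1000 genes and 2000 UMIs a cell, so the PF-like values depend on that class being drawn.

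Over all 4 components together, 1 of 9 genes that passed the filter differed from other cardiomyocyte-like cells, beside 1.89% of 11722 genes (1.25% higher and 0.648% lower). Ephb3 was higher by 3.26 ± 0.42 (edgeR, adjusted p = 0.014), in 4 of 4 libraries, with conduction-like levels of 0.306 to 1.45 against 0.0466 to 0.0700. In the AVN/His library the comparator was mainly ventricular. The atrial cells there had a higher Ephb3 level than this range, though below that of AVN/His-like cells. Without the right library the estimate was 2.96 and the adjusted p 0.10. Epha4 did not pass (1.45 ± 1.01, adjusted p = 0.49), with the SAN-like value below and both PF-like values above their comparators. Without the SAN library Epha4 and Epha7 were higher, by 2.56 and 1.32, and Efnb3 was lower, at -1.03 (adjusted p = 1.7e-03, 0.013 and 0.017). Efnb2 (1.97 ± 1.0, adjusted p = 0.32), Efna1 (1.13 ± 0.33, adjusted p = 0.10), Efnb3 (-0.82 ± 0.25, adjusted p = 0.12) and Epha7 (0.85, adjusted p = 0.33) did not pass either with 4 libraries. In 1 fit over all classes Efnb2 and Efna1 passed, at 3.21 and 1.07 (adjusted p = 2.4e-04 and 6.4e-03). Of the 40 ratios of 10 genes in 4 components, 21 had a counting interval off 0. Among ratios with at least 10 UMIs these were 20 of 36, beside 25.7% of the ratios of all genes.

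Working myocytes of the atria and the ventricles could be compared in the AVN/His library, which held both. Epha4 was at 1.61 in atrial against 0.148 in ventricular cardiomyocyte-like cells (log2 ratio 3.44, 3.21 to 3.67). Efnb2 (2.77), Ephb3 (1.93), Epha7 (1.47) and Efnb1 (1.25) were also on the atrial side, and Efnb3 (-2.01, -2.72 to -1.38) and Efna5 (-0.73) on the ventricular side. It is 1 library, so these ratios have no replicate check.

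Left and right ventricular libraries were set side by side for each class. Of 80 ratios, 16 had a counting interval off 0. Among ratios with at least 10 UMIs these were 15 of 51, beside 15.9% of the ratios of all genes. In ventricular cardiomyocyte-like cells 6 of the 10 genes had an interval below 0, that is a lower level on the left. All 6 were among the 9 with at least 10 UMIs. Of 13456 genes with that many UMIs, 1738 were lower on the left, and 29.8% had an interval off 0 in either direction. Efnb2 had the lowest log2 ratio (-0.81, -1.34 to -0.29), then Efna5 (0.254 against 0.371, -0.54, -0.68 to -0.41), Epha4 and Ephb3 (-0.47 each), Efna1 (-0.38) and Efnb3 (-0.14). In endocardial-like cells Ephb4 (-1.07) and Efnb2 (-1.43) were lower on the left and Efna5 higher (2.34, from 9 and 5 UMIs). None of the 10 genes had an interval off 0 between left and right PF-like cells, and 7 of them had at least 10 UMIs. Of 5853 genes with that many UMIs only 5.59% had one, so this does not show that the sides are alike. Each side is 1 library, so side and library cannot be told apart.

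Of the other 12 receptors and ligands of the family, 5 to 6 passed the filter in the comparisons with cardiomyocyte-like cells. Epha2 (4.18 ± 0.28), Ephb1 (5.64 ± 0.44) and Efna4 (1.72 ± 0.17) were higher in endothelial-like cells, and Epha3 (-4.45 ± 0.40) and Efna2 (-1.86 ± 0.35) were lower (edgeR, adjusted p between 3.4e-05 and 3.4e-03). Fibroblast-like cells were higher in Epha1 (5.39), Epha2 (2.35), Ephb6 (3.11), Efna2 (1.34) and Efna4 (2.72), with Epha3 at 0.91 (adjusted p = 0.10). Ephb1 divided the endothelium in the opposite way to Epha7: it had 0 UMIs in 489 endocardial-like cells and 151 in coronary endothelial-like cells, at least 25.8-fold lower at the floor of 3 counts, while Epha2 (1.23) and Efna4 (1.56) were higher in endocardial-like cells. In mural-like, conduction-like and PF-like cells only 4, 3 and 3 of the 12 were tested, and none differed by edgeR's test. The shares of all genes called there were 11.4%, 1.89% and 21.5%, so no call among so few genes is near the background.

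The pathway around the members was followed in lists of 35 genes that signal from the receptor, 9 that signal from ephrin-Bs or bind their PDZ motif, and 8 that cut or dephosphorylate receptors and ligands. In endothelial-like against cardiomyocyte-like cells, 14 of 34 tested receptor-signaling genes were higher and 11 lower, beside 34.2% of all genes higher and 34.6% lower, with a median of 0.35 beside 0.0042 over all genes tested. Vav3, a guanine nucleotide exchange factor, was at 5.74 and Yes1, a Src family kinase, at 2.03, while Kalrn, another exchange factor, was at -1.76. Rgs3, which binds ephrin-Bs and dampens G protein signaling, was higher in endothelial-like cells by 3.24, in fibroblast-like cells by 2.20, in endocardial-like cells by 0.95 and in arterial-like cells by 1.54 (adjusted p = 1.9e-05, 1.2e-04, 4.9e-03 and 2.2e-08). Mmp14, a membrane protease that cuts surface proteins, was higher in the same 4 comparisons, by 3.09, 4.32, 0.84 and 1.18.

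Fibroblast-like against cardiomyocyte-like cells had 12 of 34 receptor-signaling genes higher and 11 lower, beside 33.6% and 34.2% of all genes, among them Vav3 (5.91) and Grb2, an adaptor (-1.06). Between endocardial-like and coronary endothelial-like cells 5 of 31 were higher and 8 lower, beside 15.9% and 15.6%, with Limk1 (3.51) and Tiam1 (2.52), regulators of actin, at the top. Arterial-like cells had 3 of 22 higher and 1 lower, beside 12.8% and 13.6%. Mural-like cells had 4 of 33 higher, beside 6.22%, Rock2 (0.66), a kinase that acts on the cytoskeleton, and Chn1 (1.23), known to act downstream of Epha4, among them.

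In conduction-like cells 1 of 48 tested genes of the 3 lists was called, beside 1.89% of all genes tested, so that share was near the background. It was Limk2 (1.2, edgeR, adjusted p = 0.041), a kinase of cofilin. In PF-like cells 10 of 47 (6 higher, 4 lower) were called, beside the 21.5% of all genes given above, so the share of these lists was near the background. Lower there were Grb10, an adaptor (-0.71), and Cfl1, which encodes cofilin (-0.55). Adam10, the protease that cuts ephrins bound to receptors, was higher there by 1.36 (adjusted p = 7.0e-09), Ptpro, a phosphatase of Eph receptors, by 4.36 (adjusted p = 8.9e-06) and Stat3, reported downstream of ephrin-B1, by 1.65 (adjusted p = 1.4e-06). Adam10 had also been higher in endothelial-like (1.01) and endocardial-like (1.13) cells, and lower in fibroblast-like cells (-0.61).

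The genes most like each member were sought by Pearson correlation of log2(CPM + 1) over 44 sums of a class in a library, among 13105 genes. The sums share libraries and classes, so the values are a description. Efnb2 lay closest to Cav2 and Cav1 (0.92 and 0.92), which encode caveolins, and Efna1 to C130074G19Rik (0.92) and the endothelial transcription factor Sox18 (0.90). Ephb4 was nearest to Sema6a and 4931406P16Rik (0.91 each). Epha4 was nearest to Trim11 (0.84) and to Kcnj3 (0.82), a subunit of the acetylcholine-activated potassium channel of the atria, and Efnb3 to Fhod3 (0.87), a formin of the sarcomere, and Nnt (0.87). Epha7 was nearest to Hand2 (0.84) and Vcan (0.80), Ephb2 to Fbln7 (0.89) and Ndst3 (0.87), Ephb3 to Kif1a (0.86) and Smarcd3 (0.85), Efna5 to Fzd1 (0.80) and Gata6 (0.79), and Efnb1 to Gpx7 and Nrep (0.83 each). Among the members themselves, the highest values were between Ephb4 and Efna1 (0.82), Efna1 and Efnb2 (0.75), and Ephb4 and Efnb2 (0.69), and Epha4 and Ephb3 followed with 0.58.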

How the data were processed

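The deposited values were raw UMI counts per gene and cell, which the authors had made with Cell Ranger (its version and annotation release are not given in the sources used here) against mm10; nothing had been normalized. Barcodes with at least 500 genes (and 1000 UMIs) were kept. Counts were log normalized, and 2000 variable genes, without 74 Eph, ephrin and pathway genes, 10 principal components and a graph of 30 neighbors went into Leiden clusters (Python 3.11.15, with scanpy 1.11.5 and leidenalg 0.10.2). Names needed 3 or more markers to pass, and 50% or more of the list. The clustering resolution was 0.8 over all cells, 1.2 for endothelial-like cells and, for cardiomyocyte-like cells, 0.8 (SAN), 1.2 (AVN/His) or 2 (BB/PF regions). The 1601 cells of clusters led by hemoglobin genes and 471 of mixed clusters were left out. Doublets were kept, and leaving out cells with a Scrublet score of at least 0.2 was an alternative.

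Counts were summed per library and class (at least 20 cells) and tested with edgeR 4.0.16 in R 4.3.3 (TMM, filterByExpr, glmQLFit and glmQLFTest, library as a block, Benjamini-Hochberg adjustment over all genes tested, threshold 0.05). The standard error is the log2 fold change divided by the root of F. The steps were tested on simulated data. With 1 library a region, p-values measure the spread between libraries of different regions, and nothing says that these came from separate litters. Component and left-right ratios have exact Poisson intervals and no test. Their shares over all genes were taken where both sides together had at least 10 UMIs, a limit chosen after the data were seen. Shares of cells were also computed after thinning to 2000 UMIs.

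Named in the text are all 10 members, the other 12 family genes that passed the filter, the 2 genes of each pathway list with the lowest p in each direction, or some of them, and the 2 genes most correlated with each member. The members and lists were chosen with earlier results of these data known. Alternatives were DESeq2 1.42.0 (size factors or Wald test), no filter, no block, 1 fit over all classes, leaving out each library, a stricter cell filter, other clusterings and doublets left out; after seeing the data, an endothelial resolution of 0.8, an AVN/His resolution of 2, hemoglobin-led cells kept, and component cells with endothelial or hemoglobin RNA left out were added. Component cells were left out if they had UMIs of at least 2 endothelial marker genes or at least 10 hemoglobin UMIs. Cells below both limits were kept and can still hold such RNA. The imaging, antibody and electrocardiogram data of the study were not used here.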

Additional observations from a re-analysis of the deposited data

Results flagged for a closer look

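Epha4 and Efna5 differed between conduction components in opposite directions, each relative to the other cardiomyocyte-like cells of its own library. For Epha4 the log2 ratio was -1.87 in SAN-like cells and 4.07 in both left and right PF-like cells. The comparator was atrial in the SAN region, where it stood at 2.89 UMIs per 10000, and ventricular in the BB/PF regions, where it stood at 0.104 and 0.144. The levels of Epha4 were 0.793 in SAN-like and 1.75 and 2.42 in left and right PF-like cells. In AVN/His-like cells the level was 0.280 and the log2 ratio 0.26.

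For Efna5 the log2 ratio was 1.86 in SAN-like cells, whereas PF-like cells held 0 UMIs, so that at a floor of 3 counts per library the ratio was at most -1.66 on the left and at most -1.20 on the right. The comparator levels of Efna5, 0.25, 0.254 and 0.371 UMIs per 10000, were close to each other in the 3 libraries. Each component comes from 1 library, and the difference between components was not tested for either gene.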

How the results depend on the processing

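No paired analysis was possible because the labels give every library replicate number 1, as far as pairing by number goes; classes of the same library were paired by the library block in the tests. Over 848 recomputed values of members in tested comparisons, 787 kept direction and side of the threshold, 20 lost a call, 15 gained one and 26 changed sign; DESeq2 size factors changed no member's call or direction. Of 262 component ratios, 241 moved by less than their counting interval. Calls that a left-out library changed stand in the report with their values, and the cause was not tested.

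Numbers of genes called moved by over 1.5 times as follows. Endocardial-like against coronary endothelial-like cells: 2965, and 1609 to 3149 with a library left out (1609 without the right one). Arterial-like against capillary-like cells: 1703, with 915 by the DESeq2 Wald test, 1012 at 1.5 times the resolution (3 libraries in place of 4), and 1082 to 1925 with a library left out. Mural-like against fibroblast-like cells: 1188, with 2051 in 1 fit over all classes and 261 to 1857 with a library left out (261 without AVN/His, 447 without left, 269 without right, 1857 without SAN). Conduction-like against other cardiomyocyte-like cells: 222, with 871 by the DESeq2 Wald test, 518 without a filter, 2010 in 1 fit over all classes, 53 with Eph genes among the variable genes, 342 at AVN/His resolution 2, and 4 to 1577 with a library left out (1577 without SAN, 46 without AVN/His, 47 without left, 4 without right). PF-like cells: 2472, and 1160 by the DESeq2 Wald test. Component intervals off 0 numbered 21 of 40, and 10 after thinning. SAN-like and AVN/His-like cells alone, which are all that the stricter cell filter and 20 principal components left, had 11 of 20, with 11 and 8 under those settings. Against macrophage-like cells, levels above went from 159 to 76 after thinning.

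Apart from the AVN/His-like ratio of Efna1, the sign changes were of estimates that passed the threshold under neither setting. Efna5 in fibroblast-like cells was -0.0153 without a filter, -0.0866 in 1 fit, -0.21 (without SAN) to 0.17 with a library left out and -0.0018 with 20 principal components, and Efnb2 was 0.0182 with Eph genes among the variable genes. Efna5 in endocardial-like cells was -0.99 (without AVN/His) to 2.29 with a library left out, and -0.20 without left. Ephb4 in arterial-like cells was -0.0642 in 1 fit, -0.0475 under the stricter filter, -0.13 with Eph genes used, -0.12 at 1.5 times the resolution, -0.22 with 20 principal components and -0.0253 at endothelial resolution 0.8, and Efnb1 was -0.29 to 0.0863 (without AVN/His) with a library left out. In mural-like cells Epha4 was 0.14 and Efna5 0.0611 with 20 principal components, and with a library left out Efna1 was -0.20 (without left) to 0.47 and Efnb3 -0.59 to 0.0566 (without SAN; 0.04 without AVN/His). In conduction-like cells Epha4 was -0.39 under the stricter filter and -0.44 with 20 principal components, both from 2 libraries with no PF-like cells, Efna5 0.0627 without the block, -1.42 to 0.12 (without left) with a library left out and 0.44 in both of those clusterings, and Efnb2 -0.64 (without SAN) to 2.66 with a library left out. The AVN/His-like ratio of Efna1, 1.01 with an interval above 0, was -1.08 after thinning (interval -6.42 to 1.48).

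Leaving out a library of the PF-like comparison leaves 1, so that test was not run, nor were its stricter-filter and 20-component versions, in which no cluster was named PF-like. Arterial-like cells rested on 2 libraries under the stricter filter and at endothelial resolution 0.8. They rested on 3 with 20 principal components and at 1.5 times the resolution. At 3 counts, a level under 0.161 UMIs per 10000 can go unseen in right PF-like cells.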
